A study of Mus musculus with 6 samples.

Results

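The genes described here are 10 chemokine ligands, Ccl2, Ccl5, Ccl7, Ccl9, Ccl20, Cxcl1, Cxcl5, Cxcl12, Cxcl14 and Cxcl16, out of 53927 gene symbols counted in each library. They were picked by symbol with their levels in both culture media already known. Their differences between media are therefore a description: where a call from the fit across all genes is given for one of them, it says where the gene falls in that fit and is no evidence of a difference. RNA-seq was made from mouse embryonic stem cells (ESCs), labelled as wild-type E14, in 2 media with 3 libraries each. Every library came from cells in N2B27, a serum-free base medium, with the MEK inhibitor PD0325901 at 1 µM. The 2i medium added CHIR99021, which inhibits both GSK3 kinases, at 3 µM. The BRD0705/PD03 medium had 8 µM BRD0705 in its place, which acts selectively on the alpha kinase of the GSK3 pair. The growth protocol tells of gelatin-coated dishes and also of B6D2F1 ESCs derived and expanded on feeders in each medium, so what the libraries hold beside ESCs, and which line, is not settled by the labels.

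Chemokines are small secreted proteins that direct the movement of cells by binding G-protein-coupled receptors on them. They are named CC or CXC by the spacing of their leading pair of conserved cysteines. Many are inducible by inflammatory signals through the transcription factor NF-kB, while others, such as Cxcl12, are made steadily in many tissues. Fibroblasts, the usual feeder cells of ESC culture, are a known source of Ccl2, Ccl7, Cxcl1, Cxcl5 and Cxcl12.

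Libraries held 16968959 to 51180228 counts, and levels are given as CPM, the usual depth-scaled counts, on effective library sizes. ESC markers were abundant in every library, with Pou5f1 at 681 to 693 CPM in BRD0705/PD03 and 702 to 806 in 2i. Of 8 ESC markers tested by edgeR, 3 were higher in BRD0705/PD03, among them Zfp42 (mean 257 against 116 CPM). Another 4 were lower, among them Nanog (mean 324 against 625 CPM), and 1 was not called. The Y-linked gene Ddx3y stood at 114 to 127 CPM in BRD0705/PD03 and 2.84 to 3.32 in 2i. The label of E14, shared by both groups, does not account for this difference. The medium and the origin of the cells cannot be told apart. Fibroblast markers were present in both groups and higher in BRD0705/PD03: the summed level of the 20 genes was 1260, 1677 and 1888 CPM in BRD0705/PD03 replicates 1, 2 and 3 and 737, 743 and 709 CPM in 2i. By edgeR 17 of 20 passed as higher and 0 as lower, with a median log2 fold change of 0.93. Over all genes tested, 30.1% passed as higher and 31.4% as lower. The defining leukocyte gene Ptprc was near 0, at 0.581 to 1.13 against 0.178 to 0.474 CPM. Of 10 leukocyte markers tested, 8 were higher, among them the macrophage gene Adgre1 (3.31 to 4.76 against 0.95 to 1.42 CPM), and 2 were lower, Laptm5 and Cd3e. The summed level of the 13 leukocyte genes ran from 79.7 to 91.2 CPM in BRD0705/PD03 and from 137 to 157 in 2i, of which Laptm5 alone had a mean of 41.1 and 125 CPM. The defining endothelial gene Cdh5 had 6 counts in all BRD0705/PD03 libraries and 0 in 2i. Of 6 endothelial markers tested, 2 were higher, Tek (16.7 ± 1.22 against 7.35 ± 0.257 CPM) and Flt1 (5.70 ± 2.03 against 1.96 ± 0.274), and 2 lower, Vwf (21.7 ± 1.44 against 38.4 ± 3.49) and Kdr (1.70 ± 0.344 against 3.12 ± 0.302), and the 9 genes summed to 46.6 to 48.5 CPM against 49.2 to 55.4. In bulk RNA, fewer cells of a type and less RNA per cell cannot be told apart.

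Promoter windows of RefSeq on GRCm38.p6, from 250 bases before to 50 bases after the annotated start, were at hand for 5 of the 10 genes. The 4 that held a match to a searched motif are shown. Inducibility was not measured, and a relation of motifs to the differences between media was not tested. Each is written 5′ to 3′ on the gene's strand, with matches in capitals.

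Cxcl1 (chr5:90890995-90891294, plus strand): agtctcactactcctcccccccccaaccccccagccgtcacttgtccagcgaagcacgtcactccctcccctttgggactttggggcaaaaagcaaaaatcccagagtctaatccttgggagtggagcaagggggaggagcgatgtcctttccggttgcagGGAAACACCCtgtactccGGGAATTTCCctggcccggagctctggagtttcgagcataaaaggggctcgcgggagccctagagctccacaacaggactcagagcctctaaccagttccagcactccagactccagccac

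Ccl20 (chr1:83116516-83116815, plus strand): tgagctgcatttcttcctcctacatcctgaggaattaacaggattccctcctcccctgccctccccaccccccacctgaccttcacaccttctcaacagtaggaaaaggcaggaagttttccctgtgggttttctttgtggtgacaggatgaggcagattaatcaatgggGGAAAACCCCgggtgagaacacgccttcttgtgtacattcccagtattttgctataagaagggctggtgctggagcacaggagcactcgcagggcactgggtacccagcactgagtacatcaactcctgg

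Ccl9 (chr11:83578587-83578886, minus strand): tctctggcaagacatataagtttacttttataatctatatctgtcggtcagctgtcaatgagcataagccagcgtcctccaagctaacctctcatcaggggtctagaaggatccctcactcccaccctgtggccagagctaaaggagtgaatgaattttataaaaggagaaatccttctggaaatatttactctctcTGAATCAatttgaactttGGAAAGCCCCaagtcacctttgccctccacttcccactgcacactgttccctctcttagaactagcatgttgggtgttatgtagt

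Cxcl12 (chr6:117168285-117168584, plus strand): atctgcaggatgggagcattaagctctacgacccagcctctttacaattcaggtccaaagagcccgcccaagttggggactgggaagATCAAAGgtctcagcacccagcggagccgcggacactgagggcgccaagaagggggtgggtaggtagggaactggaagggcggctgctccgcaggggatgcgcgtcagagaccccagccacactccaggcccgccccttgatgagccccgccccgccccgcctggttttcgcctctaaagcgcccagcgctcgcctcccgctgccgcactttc

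The 3 motifs were searched on both strands: a form of the kappa B site bound by NF-kB, which reads GGG, any pair of bases and TTTCC, the AP-1 site, TGANTCA, and a form of the TCF/LEF site, CTTTGAT. Positions count the first base at the start as 0 and bases before it as negative. Cxcl1 held 2 kappa B matches, from -89 to -80 on the reverse strand and from -71 to -62 as GGGAATTTCC. Ccl20 held 1, from -80 to -71 on the reverse strand. Ccl9 held 1 kappa B match, from -35 to -26 on the reverse strand, and an AP-1 match, TGAATCA, from -53 to -47. The window of Cxcl12 held no kappa B match and 1 TCF/LEF match, on the reverse strand from -163 to -157, and that of Cxcl14 held none of the 3 motifs. Among all 32851 windows, 1.63% held the kappa B letters, 7.81% the AP-1 letters and 3.73% the TCF/LEF letters. No matches overlapped each other. A match describes the letters and does not show binding.

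All 10 ligands passed the filter on low counts. Levels were higher in BRD0705/PD03 for 9 of them at an adjusted p under 0.05 by edgeR, and lower for 0. Over all 20422 genes tested, 30.1% were called higher and 31.4% lower, 61.4% in either direction. The median log2 fold change of the 10 was 1.31, against 0.00 over all genes. For 8 of the 10 the lowest BRD0705/PD03 library was higher than the highest 2i library, as it was for 32.4% of all genes, and 66.0% of all genes had groups apart in either direction. These counts describe genes chosen with this contrast in view.

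**Figure D1:**
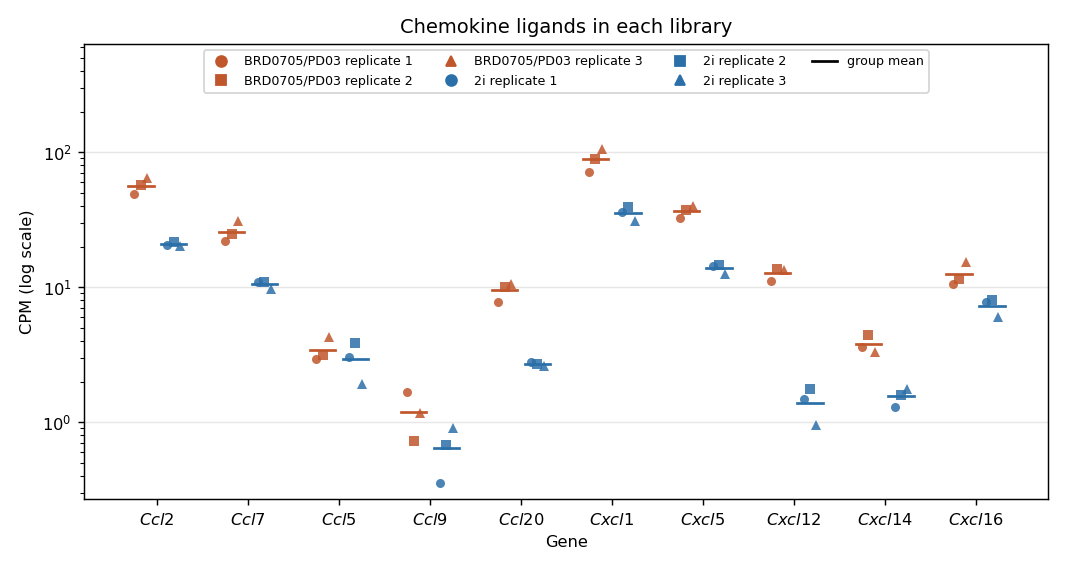
CPM on a log axis of the 10 chemokine ligands in each of 3 BRD0705/PD03 and 3 2i libraries, with horizontal lines at the group means. Both groups overlap for Ccl5 and Ccl9, and for the other 8 genes all BRD0705/PD03 libraries lie above all 2i libraries.

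Ccl2 and Ccl7 attract monocytes through the receptor Ccr2 and lie side by side on chromosome 11 (GRCm38, 82035571 to 82037453 and 82045712 to 82047525, both on the plus strand). Ccl2 stood at 49.1, 56.7 and 64.1 CPM in BRD0705/PD03 replicates 1 to 3 and at 20.5, 21.5 and 20.2 CPM in 2i. The groups were far apart, with a log2 fold change of 1.45 ± 0.09 (SE). Ccl7 stood at 21.9, 24.8 and 30.7 CPM against 10.9, 11.01 and 9.71 CPM, a log2 fold change of 1.29 ± 0.13. In both genes BRD0705/PD03 replicate 1 was the lowest of its group and replicate 3 the highest, while the 2i libraries lay close together. The annotated gene Gm17268 overlaps Ccl2 on the other strand and had 0 CPM in both groups.

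Ccl20 attracts cells that carry Ccr6, such as some dendritic and T cells, and lies on chromosome 1 (83116766 to 83119167, plus strand). Its levels were 7.83, 10.02 and 10.6 CPM in BRD0705/PD03 and 2.79, 2.69 and 2.60 CPM in 2i. The 2i values lay close together, at 2.70 ± 0.09 CPM (SD, n = 3). The log2 fold change, 1.82 ± 0.13, was the second in size after that of Cxcl12. 

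Ccl5 and Ccl9, near each other on the minus strand of chromosome 11 (83525778 to 83530518 and 83572919 to 83578636), were low and did not separate the groups. Ccl5, a T cell attractant that interferon pathways induce, stood at 2.96, 3.12 and 4.24 CPM against 3.03, 3.85 and 1.93 CPM. Its log2 fold change of 0.20 ± 0.24 was smaller than its standard error, and the sign turned, to -0.020, without 2i replicate 3, the lowest library. Ccl9, made mainly by macrophages and other myeloid cells, stood at 1.66, 0.73 and 1.18 CPM against 0.36, 0.68 and 0.91 CPM. These values rest on 20 to 54 counts per library in BRD0705/PD03 and 6 to 34 in 2i. Ccl9 was called higher (0.83 ± 0.33), but not without BRD0705/PD03 replicate 1 (0.53 ± 0.35) or replicate 3 (0.85 ± 0.39), nor without 2i replicate 1 (0.64 ± 0.34) or replicate 2 (0.85 ± 0.44), nor by DESeq2 (0.85 ± 0.47). With the replicate number as a block it was also not called (0.74 ± 0.35).

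Cxcl1 and Cxcl5 attract neutrophils through Cxcr2 and share a cluster on chromosome 5 (90891241 to 90893115 and 90759360 to 90761624, plus strand). Cxcl1 had the highest CPM of the 10, at 71.2, 88.7 and 106 CPM in BRD0705/PD03 and 36.1, 39.2 and 30.7 CPM in 2i. Its log2 fold change was 1.32 ± 0.20, the widest error among the genes above 20 CPM, and the lowest BRD0705/PD03 library was still above the highest of 2i. Cxcl5 stood at 32.5, 37.0 and 40.2 CPM against 14.2, 14.6 and 12.6 CPM. Its log2 fold change, 1.40 ± 0.08, was close to those of Cxcl1, Ccl2 and Ccl7.

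Cxcl12 guides stem cells, germ cells and blood progenitors through Cxcr4 and lies on chromosome 6 (117168535 to 117181367, plus strand). It stood at 11.1, 13.7 and 13.4 CPM in BRD0705/PD03 and at 1.48, 1.76 and 0.95 CPM in 2i. The lowest BRD0705/PD03 library was far above the highest 2i library. The log2 fold change was 3.13 ± 0.16, a ratio of 8.73, against ratios of 1.15 to 3.53 for the other 9. It ranged from 2.93 to 3.45 over all alternatives. The 2i values rest on 24 to 88 counts per library.

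Cxcl14, a chemokine of epithelia and stroma, lies on chromosome 13 (56288643 to 56296551, minus strand). It stood at 3.61, 4.39 and 3.31 CPM against 1.31, 1.60 and 1.78 CPM, without overlap (1.24 ± 0.18). Cxcl16, which is made as a membrane-bound protein and is the ligand of Cxcr6, lies on chromosome 11 (70453983 to 70459984, minus strand). Its levels were 10.6, 11.5 and 15.5 CPM against 7.71, 8.04 and 6.0 CPM, and its log2 fold change of 0.78 ± 0.17 was the smallest of the 8 genes whose groups did not overlap. Zmynd15 overlaps its start on the other strand. With the strand setting not given in the sources used here, reads of the shared stretch cannot be assigned with certainty, but Zmynd15 itself was low (1.03 ± 0.208 against 0.271 ± 0.150 CPM).

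Levels between genes were compared as CPM per kilobase of merged annotated exons. In BRD0705/PD03 the order was Ccl2 (49.8 ± 6.56), Cxcl1 (47.2 ± 9.22), Ccl7 (32.3 ± 5.59), Cxcl5 (19.6 ± 2.08), Ccl20 (6.68 ± 1.04), Cxcl16 (4.14 ± 0.859), Ccl5 (3.58 ± 0.728), Cxcl14 (2.06 ± 0.307), Cxcl12 (1.56 ± 0.171) and Ccl9 (0.391 ± 0.154; SD, n = 3 each). The libraries of Ccl2 and Cxcl1 overlapped on this scale, as did those of Cxcl1 and Ccl7 and those of Cxcl16 and Ccl5. In 2i the leading pair was Cxcl1 (18.8 ± 2.29) and Ccl2 (18.2 ± 0.608), again overlapping, followed by Ccl7 (13.2 ± 0.908) and Cxcl5 (7.41 ± 0.557). Ccl5 (3.06 ± 1.0) and Cxcl16 (2.40 ± 0.363), which overlapped, came before Ccl20 (1.90 ± 0.065), so that Ccl20 ranked above both in BRD0705/PD03 and below both in 2i. Cxcl14 (0.853 ± 0.13) came next, and Cxcl12 (0.171 ± 0.0503) was the lowest, overlapping Ccl9 (0.213 ± 0.091). Cxcl12 has 8176 bases of merged exon, the most of the 10, which lowers its level on this scale.

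Within each medium, most ligands shared their lowest and highest library with the summed fibroblast markers. All 10 ligands were read in the same 3 libraries per medium, so the counts that follow are not independent. In 2i the fibroblast sums lay close together, at 737, 743 and 709 CPM. Within BRD0705/PD03 the library with the lowest fibroblast sum, replicate 1, was also the lowest for 8 of 10 ligands, and the library with the highest sum, replicate 3, was the highest for 7. Within 2i the lowest fibroblast sum was in replicate 3, which was the lowest library for 8 of 10, and the highest was in replicate 2, the highest for 7. Ccl9 and Cxcl14 were the exceptions for the lowest library in both media. The summed ESC markers had the same lowest and highest libraries, at 2593, 2679 and 2688 CPM in BRD0705/PD03 and 3441, 3571 and 3289 CPM in 2i. The order is thus not particular to the fibroblast markers, and how many of all genes share it was not counted.

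Each ligand was also set against the summed fibroblast markers, as CPM per 1000 CPM of those markers, a ratio chosen after the levels were seen. For 5 ligands the BRD0705/PD03 mean was 1.12 to 1.25 times the 2i mean, Ccl2 at 35.6 ± 2.97 against 28.4 ± 0.553, Cxcl1 at 55.1 ± 1.96 against 48.3 ± 4.77, Cxcl5, Ccl7 and Cxcl14. For 3 it was lower, Ccl5 (0.537 times), Cxcl16 (0.787 times) and Ccl9 (0.888 times). Ccl20 (5.94 ± 0.297 against 3.69 ± 0.0805) and Cxcl12 stood further apart. Cxcl12 was at 8.83, 8.14 and 7.10 per 1000 in BRD0705/PD03 and at 2.01, 2.36 and 1.34 in 2i, 4.22 times higher in mean. With the geometric mean of the 20 markers in place of their sum, the ratio was 4.74 for Cxcl12, 1.81 for Ccl20, 1.41 for Ccl2 and 0.605 for Ccl5. It was 1.37 for Cxcl5, 1.29 for Cxcl1, 1.26 for Ccl7 and Cxcl14, 0.977 for Ccl9 and 0.886 for Cxcl16. The size of these ratios thus depends on how the markers are combined. How far fibroblasts contribute to any of these levels was not tested.

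**Figure D2:**
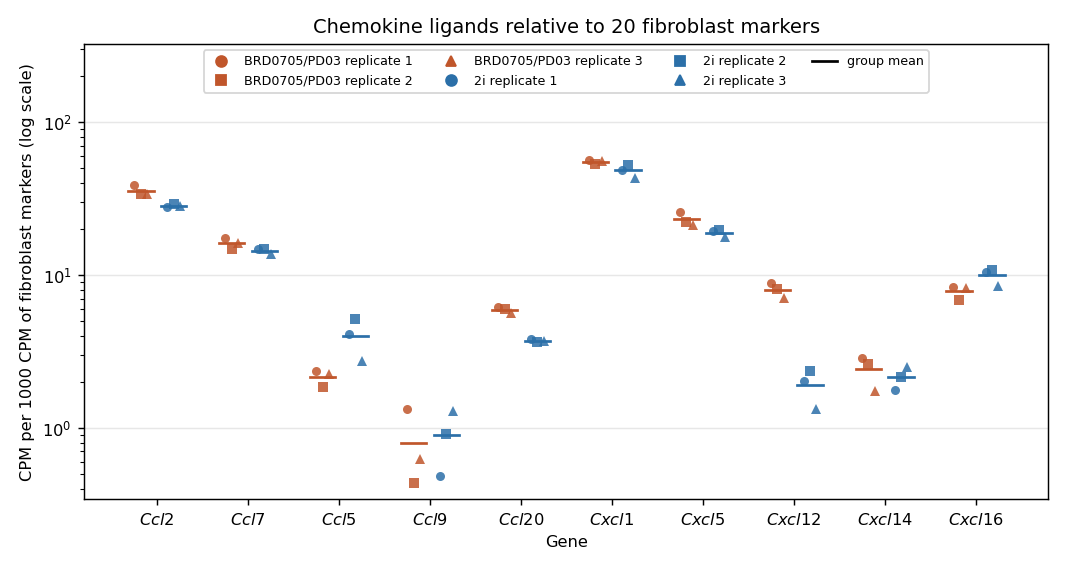
Level of each ligand as CPM per 1000 CPM of the summed 20 fibroblast markers, on a log axis, in each library, with lines at the group means. Cxcl12 and Ccl20 remain well apart between media, while Ccl7, Ccl9 and Cxcl14 overlap and Ccl5 and Cxcl16 lie higher in 2i.

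The rest of the family was mostly near absent. Of 29 other ligand genes, 19 did not pass the filter on low counts, and 4 of these had 0 counts in every library, where 3 counts would be 0.0598 to 0.178 CPM. Of the 10 tested, 7 were higher in BRD0705/PD03 and 0 lower, with a median of 0.80, where 30.1% of all genes were called higher and 31.4% lower. Together the 29 genes took 51.6 to 74.6 CPM in BRD0705/PD03 and 34.4 to 42.5 in 2i, against 213 to 289 and 87.3 to 105 CPM for the 10. Cxcl2, another neutrophil attractant, rose to 5.46 ± 1.14 from 2.99 ± 0.10 CPM (0.87 ± 0.15, edgeR adjusted p = 6.96e-05). Ccl3, a macrophage inflammatory protein, rose by 1.26 ± 0.27 (edgeR adjusted p = 0.00046) at about 1 CPM, and Cx3cl1, a membrane-bound chemokine, by 0.96 ± 0.19 (edgeR adjusted p = 0.000235). Ccl8 (0.50 ± 0.09, edgeR adjusted p = 0.000145) and Ccl25, the ligand of Ccr9 (0.46 ± 0.12, edgeR adjusted p = 0.00211), rose less. The interferon-induced Cxcl10 (8.26, 10.4 and 14.2 against 7.89, 7.78 and 5.88 CPM) and Cxcl11 (12.9, 14.5 and 22.8 against 11.4, 11.2 and 8.05 CPM), named after their values were seen, did not pass the test (edgeR adjusted p = 0.0782 and 0.105). Their groups did not overlap, but BRD0705/PD03 replicate 1 lay close to the 2i libraries. The annotation classes Cxcl11 as a polymorphic pseudogene.

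**Figure D3:**
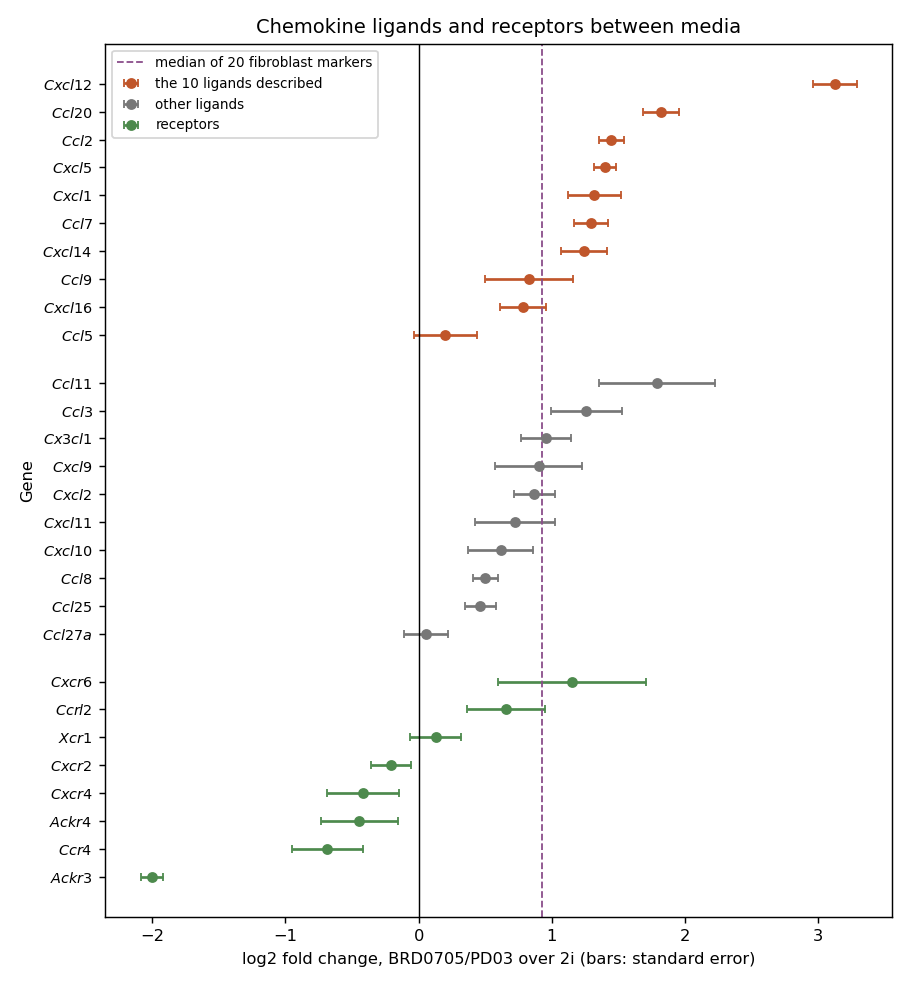
log2 fold change of BRD0705/PD03 over 2i with its standard error for the 10 ligands, the 10 other ligands tested and 8 of the 9 receptors tested, with a dashed line at the fibroblast marker median of 0.93. Cxcl12 lies farthest to the right at 3.13 and the receptor Ackr3 farthest to the left at -2.00.

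Neighbouring genes in the same cluster were at very different levels. Within 79.6 kb on chromosome 11, Ccl2, Ccl7 and Ccl8 reached 49.8, 32.3 and 19.6 CPM per kb in BRD0705/PD03, while Ccl11 and Ccl12 between them stood at 0.418 and 0.0834. Ccl11, named after its value was seen, was still called higher (1.79 ± 0.44, edgeR adjusted p = 0.00162). In the Cxcl5 cluster the 4 genes between Cxcl5 and Cxcl1, Ppbp, Pf4, Cxcl3 and Cxcl15, were at 0.0526 to 0.113 CPM per kb in BRD0705/PD03, against 19.6 for Cxcl5 and 47.2 for Cxcl1. Cxcl2, on the far side of Cxcl1, stood at 2.64. The windows of Cxcl2 and Cxcl3 held the same kappa B letters, GGGAATTTCC, as that of Cxcl1, from -97 to -88 and from -73 to -64. The window of Cxcl2 held a further kappa B match, GGGCTTTTCC, from -78 to -69. Estimated counts divide reads between similar genes, so values of close relatives such as Cxcl1, Cxcl2 and Cxcl3 are less certain.

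**Figure D4:**
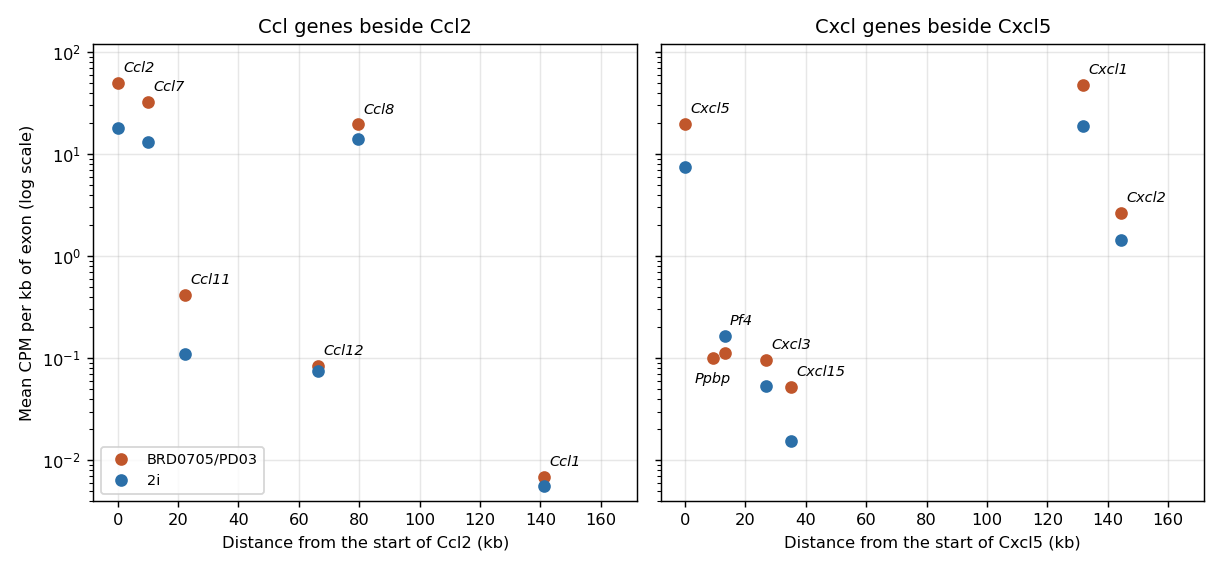
Mean CPM per kb of merged exon, on a log axis, of chemokine genes against distance from the lower coordinate of Ccl2 (left) or Cxcl5 (right), n = 3 libraries per medium. High genes alternate with genes below 1 CPM per kb, and Ppbp in 2i is at 0 and not drawn.

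Most receptor genes were low, with Ackr3 in 2i an exception. Of 23 receptor genes, 9 passed the filter, 0 were called higher and 2 lower, where 30.1% of all genes tested were called higher and 31.4% lower. Ccr1, Ccr2 and Ccr6 had 1, 16 and 2 counts over the 3 BRD0705/PD03 libraries and 3, 15 and 2 over the 3 of 2i. Of the atypical receptors, Ackr1 had 1 and 0 counts and Ackr2 had 4 and 1. Cxcr2, the receptor of Cxcl1 and Cxcl5, did not pass the test (4.70 ± 1.14 against 5.42 ± 0.405 CPM, edgeR adjusted p = 0.26). Without BRD0705/PD03 replicate 1, Cxcr2 passed as lower (-0.42 ± 0.13, edgeR adjusted p = 0.0119). Ccr4, a T cell receptor for other chemokines, was called lower (-0.69 ± 0.27, edgeR adjusted p = 0.0324), and that call was lost by DESeq2 (adjusted p = 0.216), with upper-quartile factors (edgeR adjusted p = 0.0571), without a filter (0.0502), without BRD0705/PD03 replicate 2 (edgeR adjusted p = 0.0741) or 3 (0.124) and without 2i replicate 3 (0.174).

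The receptors of Cxcl12 differed from each other. Cxcr4, its signalling receptor, stood at 0.832, 0.617 and 0.834 CPM in BRD0705/PD03 and 1.01, 0.838 and 1.302 CPM in 2i (-0.42 ± 0.27, edgeR adjusted p = 0.19). Ackr3, an atypical receptor that takes up Cxcl12 without G-protein signalling, fell from 18.04, 17.8 and 17.8 CPM in 2i to 4.34, 4.54 and 4.51 CPM in BRD0705/PD03. The groups were tight and far apart, with a log2 fold change of -2.00 ± 0.08 (edgeR adjusted p = 1.93e-13). Ackr4, an atypical receptor for other chemokines, did not pass (-0.44 ± 0.29, edgeR adjusted p = 0.202).

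Proteases that cut chemokines or release them from the membrane moved both ways. Dpp4, a peptidase that trims and inactivates Cxcl12, fell to 2.56, 3.74 and 3.90 CPM from 24.7, 25.2 and 22.6 CPM (-2.82 ± 0.12, edgeR adjusted p = 4.87e-11). Every BRD0705/PD03 library lay far below every 2i library. Adam10, which sheds Cxcl16 and Cx3cl1, fell from 47.4 ± 1.04 to 24.7 ± 0.585 CPM (edgeR adjusted p = 1.04e-11), while Adam17, a second shedding enzyme, rose from 63.9 ± 3.41 to 80.4 ± 2.67 CPM (edgeR adjusted p = 7.79e-06). The matrix metalloproteinase genes Mmp2 (1.20 ± 0.10) and Mmp14 (1.14 ± 0.06) rose, and Mmp2 is also among the fibroblast markers. Cxcr6, the receptor of Cxcl16, had 50 counts over the BRD0705/PD03 libraries and 20 over those of 2i, with 0 in 2i replicate 1. It did not pass the test (1.15 ± 0.56, edgeR adjusted p = 0.0891), and passed without a filter (1.17 ± 0.45, edgeR adjusted p = 0.0277) and without 2i replicate 3 (2.07 ± 0.60, edgeR adjusted p = 0.0059).

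**Figure D5:**
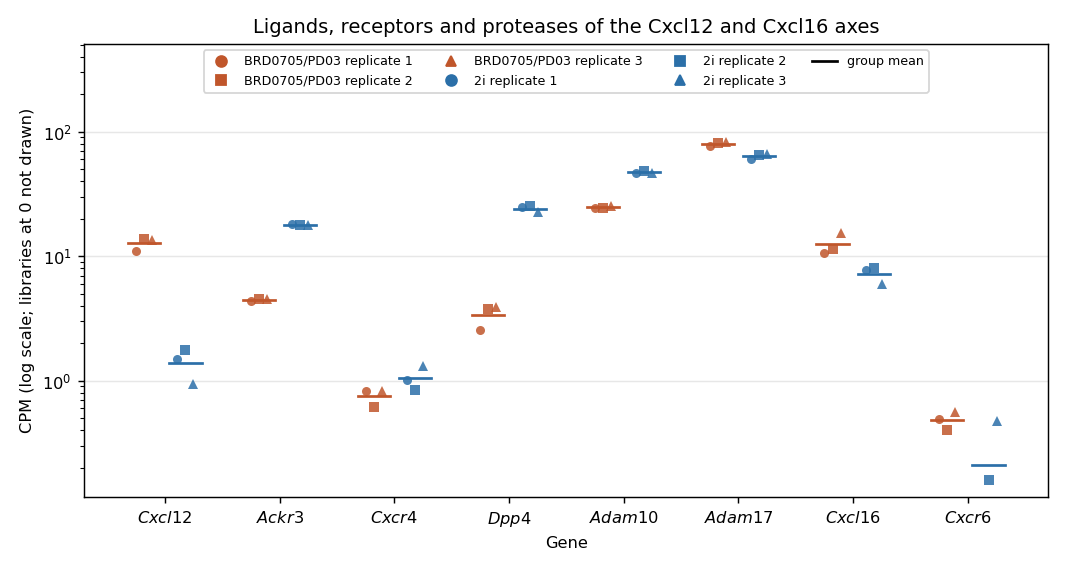
CPM on a log axis of Cxcl12, Cxcl16, their receptors and proteases that act on them, in each library, with lines at the group means. Ackr3 and Dpp4 are lower in all BRD0705/PD03 libraries while Cxcl12 is higher, and the 2i library with 0 counts of Cxcr6 is not drawn.

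NF-kB, a dimer of Rel proteins held back by inhibitors until a kinase complex marks these for destruction, induces many chemokine genes. Of 22 pathway genes tested, 10 were higher, 4 lower and 8 not called, with a median of 0.16. Over all genes tested, 30.1% were called higher and 31.4% lower. The share of this list called in either direction was near the 61.4% of all genes. By direction, higher calls outnumbered lower ones in this list, while over all genes the shares were close. Whether the list differs from all genes was not tested, nor was NF-kB activity. Rela, its main activating subunit, rose to 15.0 ± 0.954 from 10.2 ± 0.149 CPM (0.56 ± 0.08, edgeR adjusted p = 5.46e-06). Relb (-0.72 ± 0.06) and Rel (-1.10 ± 0.12), subunits of other dimers, fell. Ikbkg, the X-linked regulatory subunit of the kinase complex, fell from 57.4 ± 0.108 to 28.5 ± 2.30 CPM. Nfkbiz (0.70 ± 0.09), a nuclear cofactor, and the adaptor Traf6 (0.54 ± 0.06) rose. Nfkbia, the inhibitor that NF-kB itself induces, stood at 37.6, 45.6 and 48.8 against 41.2, 41.1 and 35.5 CPM, overlapping (0.16 ± 0.11, edgeR adjusted p = 0.244). It was called higher without a filter (0.19 ± 0.06, edgeR adjusted p = 0.00729) and without BRD0705/PD03 replicate 1 (0.27 ± 0.07, edgeR adjusted p = 0.00328). Nfkb1, a partner of Rela, was not called at 0.10 ± 0.05 (edgeR adjusted p = 0.117). It was called higher with upper-quartile factors (0.16, edgeR adjusted p = 0.00729), among genes averaging 1 CPM or more (0.12, 0.0414), among protein-coding genes only (0.11, 0.0371) and without BRD0705/PD03 replicate 1 (0.14, 0.0217).

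Other inflammatory genes that NF-kB induces were higher in 9 of 14 tested, lower in 0 and not called in 5. Their log2 fold changes ran from -0.11 to 1.34, with quartiles of 0.25 and 1.14 and a median of 0.98. The fibroblast markers had a median of 0.93. The uncalled genes, added here with their levels known, included the abundant Ptgs2 (-0.11 ± 0.10, 66.7 against 72.4 CPM) and Icam1 (0.04 ± 0.08, 63.8 against 62.3 CPM). The others were Birc3 (0.17 ± 0.09), C3 (0.51 ± 0.24) and Il1a (-0.04 ± 0.22). Of all genes tested, 30.1% were called higher and 31.4% lower. The cytokine gene Il6 stood at 15.8, 21.0 and 21.4 CPM against 11.04, 10.5 and 9.12 CPM, without overlap (0.93 ± 0.12, edgeR adjusted p = 4.97e-05). The protease gene Mmp3 rose by 1.04 ± 0.15 and Tnfaip2 by 1.15 ± 0.16. Il1b and Tnf, cytokine genes typical of macrophages, rose by 1.34 ± 0.26 and 1.31 ± 0.29, at 1.60 ± 0.422 against 0.647 ± 0.0661 CPM and 1.11 ± 0.269 against 0.443 ± 0.0293 CPM. The macrophage markers Itgam (2.37 ± 0.33, 1.03 against 0.192 CPM) and Cd14 (1.67 ± 0.26, 1.70 against 0.489 CPM) were higher in the same libraries, at low levels. Itgam had 3 to 10 counts per 2i library. The more abundant Cd68 differed little (0.27 ± 0.07, 14.9 against 12.3 CPM). Of the 10 leukocyte markers tested, 8 were higher and 2, Laptm5 and Cd3e, lower. The part of such cells in the levels of Il1b and Tnf was not tested.

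Regulators of the interferon response, which acts on Ccl5, were higher in 9 of 12 and lower in 2, with a median of 0.24. Among all genes tested, 30.1% were called higher and 31.4% lower. Irf1, a transcription factor of that response, rose to 55.8 ± 2.80 from 20.8 ± 0.634 CPM (1.42 ± 0.06, edgeR adjusted p = 7.93e-14). The sensor gene Ddx58 (0.66 ± 0.04) and the kinase gene Tbk1 (0.37 ± 0.05) rose less, while Mavs, the adaptor of Ddx58, fell from 53.7 ± 1.56 to 18.4 ± 0.982 CPM. Ccl5 itself was not called.

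The genes with the most similar profiles were found by the root mean square distance between log2 CPM values over the 6 libraries, each gene centred on its own mean, among 12490 named protein-coding genes whose mean reached 1 CPM. For Cxcl1, the ligand with the highest mean CPM, they were Osmr (distance 0.0292), Rnase4 (0.0469) and Cdh11 (0.0499). For Cxcl12, the ligand with the highest log2 fold change, they were Ripply1 (0.117), Mnd1 (0.164) and Cdhr1 (0.18). For Ccl5, the one with the lowest, they were Dnajc30 (0.0834), Alyref2 (0.165) and Fkbpl (0.165). All distances share the same 6 libraries, so that with a large difference between groups they follow mostly its size.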

How the data were processed

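RNA came from 6 samples labelled as mouse ESCs, grouped and numbered by their titles. The deposited tables hold whole numbers for 53927 symbols. The submitters' processing notes name Salmon, without its version, and mm10. The values were taken as estimated counts per gene, rounded by the authors and left unscaled between libraries (judged from the values). For annotation and strand setting, nothing is given in the sources used here. Whether each library is its own culture is not stated. The p-values therefore reflect the spread among these libraries alone, and it may be technical. Libraries of a group differed by more than sampling noise (chi-square over its degrees of freedom, 2.77 to 9.84).

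The test was that of edgeR 4.0.16 under R 4.3.3 (filterByExpr, TMM, robust quasi-likelihood test, group as only term, 2-sided) over 20422 genes with Benjamini-Hochberg adjustment and a threshold of 0.05. Standard errors are the log2 fold change over the square root of F. Coordinates and exon lengths are from GENCODE M21 on GRCm38, the assembly also called mm10, matched by symbol (51951 symbols to 1 gene). The steps were tested on simulated data. The members, lists and tests were chosen with earlier results of these data known. Named genes were all 10 ligands, 17 fixed receptors, NF-kB genes and proteases, and from each other list the 5 called genes of smallest p at 0.5 CPM or more, with 3 nearest profiles (log2 of CPM plus 0.1) for 3 ligands. The alternatives tried were upper-quartile or median-ratio factors, DESeq2 1.42.0, looser and stricter filters, protein-coding genes only, the replicate number as a block and leaving out each library. Intervals and floors cover counting error only. Values of some genes on the lists are not reported here.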

Additional observations from a re-analysis of the deposited data

How the results depend on the processing

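The 10 ligands kept the direction of their difference under every alternative run, except Ccl5, which ran from -0.020 without 2i replicate 3 to 0.53 without 2i replicate 2. Ccl9 averaged below 1 CPM, so it has no value under the stricter filter. The count of ligands called higher stayed within 1.5 times of 9. Replicate numbers gave no sign of pairing: deviations of same-numbered libraries correlated at -0.00822, 0.034 and -0.0357. Those of differently numbered libraries correlated at -0.0663 to 0.0706. These values cannot exclude a batch shared by same-numbered libraries. With the replicate number as a block, 1 fibroblast marker was called lower and 16 in place of 17 higher, 6 in place of 9 inflammatory NF-kB targets and 6 in place of 7 other ligands were called higher, and Ccl9 was not called (0.74). Other ligands called higher numbered 11 in place of 7 by DESeq2 and without a filter. Receptors called lower numbered 1 in place of 2 with upper-quartile factors, by DESeq2, with only genes averaging 1 CPM or more, and without a filter. Receptors called higher numbered 1 in place of 0 with upper-quartile factors, without a filter and with protein-coding genes only. Leaving out each library in turn gave 0 to 1 receptors called higher, 1 to 3 lower, 0 to 1 fibroblast markers lower and 0 to 1 inflammatory NF-kB targets lower. Causes of these changes were not tested. Depth limits Ccl9, with 6 to 54 counts per library, and the 14 receptors not tested.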
